A study of Homo sapiens with 6 samples.

Results

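The imprinted genes examined here were 45 genes of known imprinted clusters, picked by their symbol in the expression table. Of these, 35 were among the 17471 genes listed in the table and 29 were among the 13163 genes that passed the filter on low values and were tested. RNA-seq had been performed on AN3CA, an established human endometrial cancer (EC) line that expresses *PAX2*, a developmental transcription factor gene whose loss in EC is the subject of the study. By the sample labels and the paper's methods, the 3 control libraries (shEV) came from cells transduced with lentivirus carrying the empty pGFP-C-shLenti vector. The 3 knockdown (KD) libraries (shPAX2) came from cells transduced with the same vector encoding 1 hairpin of 29 bases against *PAX2*. The paper's results and figures call the AN3CA control scrambled shRNA instead, so whether the control carried a hairpin is not settled here. Both groups had been selected with puromycin, so they share the vector backbone and the selection, and a single hairpin cannot separate the effect of *PAX2* KD from other effects of that hairpin. The labels number the replicates 1 to 3 without stating that they were separate cultures, so the p-values measure the spread between these libraries, which may be technical.

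Genomic imprinting is the expression of a gene from the maternal or the paternal chromosome only, set by DNA methylation that is laid down in the germ line and kept through cell division. Imprinted genes lie in clusters in which a differentially methylated control region acts on several genes at once, often together with a long noncoding RNA, and many of them act on growth of the placenta and fetus. Loss of imprinting is a known event in tumors. The values here are TPM (transcripts relative to 1000000 in a library), in which the reads of a gene are divided by its length and set against the sum for the library, and they add up the RNA of both alleles. The allele of origin was therefore not measured, and the assignment of each gene to the paternal or the maternal allele below is textbook background.

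*PAX2* itself was read first. Its level was 4.03, 3.66 and 2.74 TPM in the shEV libraries and 0.916, 0.723 and 1.17 TPM in the shPAX2 libraries, a log2 fold change of -1.47 (SE 0.18; limma adjusted p = 0.000294), which left 26.9% of the shEV mean. Depth differed by group, with 10730909 to 18221859 recovered reads in a shEV library and 19422615 to 29405787 in a shPAX2 library, so the KD libraries were all the deeper ones. Over all tested genes, the log2 fold changes had a median of -0.10, which became -0.00018 when the libraries were scaled by the median of ratios, so where this scaling ended or made the call of a gene named below, this is said beside it. Of the epithelial markers, 9 of 10 were listed and 8 of them, *EPCAM* and *CDH1* included, were under 1 TPM in every library. The cells in these libraries thus lacked most defining RNAs of an epithelium in both groups. The summed epithelial marker level was 11.2 to 13.3 TPM in shEV and 12.4 to 18.1 TPM in shPAX2, mostly *KRT18*. *KRT18* did not pass (0.39, limma adjusted p = 0.0642) but did under median-of-ratios scaling (0.49, adjusted p = 0.0254). For Müllerian and endometrial markers 7 of 10 were listed, and their sum was 14.5 to 16.6 TPM in shEV and 38.3 to 46.2 TPM in shPAX2, mostly *HOXA10* and *HOXA11*. The sum includes *PAX2*, which fell. *PAX8*, *ESR1* and *LHX1* stayed under 1 TPM in every library, and *PGR*, *FOXA2* and *SOX17* were not listed. Of the mesenchymal and stromal markers 8 of 10 were listed, 3 reached 1 TPM in every library, and *CDH2*, *PDGFRA* and *THY1* stayed under 1 TPM. The sum, mostly *VIM*, was 4896 to 5299 TPM in shEV and 4362 to 4556 TPM in shPAX2. Within it *VIM* did not pass (-0.14, limma adjusted p = 0.0683). *COL1A2* fell from a mean of 836 to 390 TPM (-1.11, adjusted p = 1.75e-05), while *COL3A1* rose from 35.1 to 242 TPM (2.79, adjusted p = 0.000122). For immune and endothelial markers 6 of 8 were listed, and they summed to 1.28 to 2.05 TPM in shEV and 1.90 to 2.71 TPM in shPAX2. The part of these marker levels in the results below was not tested.

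Among the 29 tested imprinted genes, 13 were lower and 2 were higher in shPAX2 at an adjusted p under 0.05 (limma on log2(TPM + 0.5), two-sided, Benjamini-Hochberg over all 13163 genes). These are 44.8% and 6.90% of the imprinted genes, beside 30.5% lower and 12.2% higher among all tested genes. In either direction 51.7% were called, beside a background of 42.8%. A further threshold of a 2-fold change, or 1 on the log2 scale, was passed by 3 imprinted genes (10.3%), *ZDBF2*, *GRB10* and *MEG8*, all lower, beside 4.54% of all tested genes. The values of the 3 shEV and 3 shPAX2 libraries did not overlap for 20 imprinted genes (69.0%), beside 54.9% of all genes. The median log2 fold change was -0.18 over the imprinted genes and -0.10 over all genes. Under median-of-ratios scaling the split became 5 higher and 10 lower among the imprinted genes, and 2786 higher and 2626 lower among all genes where it had been 1612 and 4017. Without shPAX2 replicate 2, the number of higher genes fell to 975 among all genes and stayed at 2 among the imprinted genes. Of the 15 calls, 9 held under each of the 17 alternative settings that tested the gene (*IGF2R*, *GRB10*, *ZDBF2*, *MEG8*, *MESTIT1*, *PPP1R9A*, *COPG2*, *INPP5F* and *GNAS*), and the other 6 are named with the setting that ended them.

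**Figure D1:**
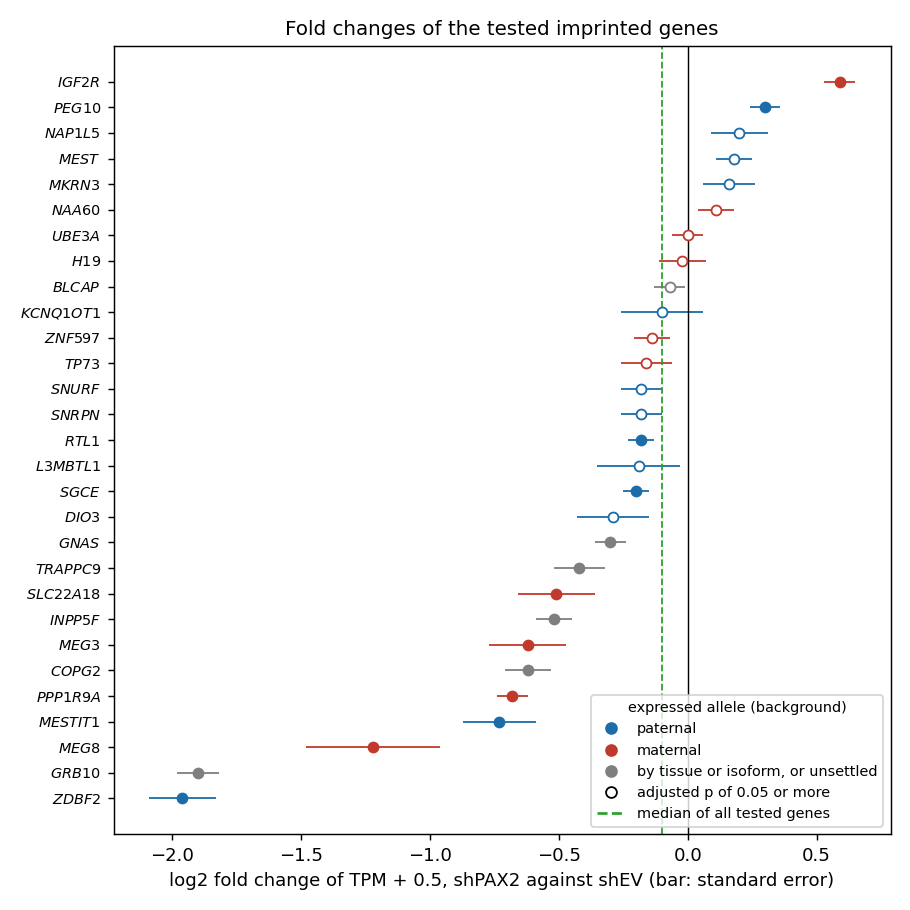
Log2 fold change of TPM + 0.5, shPAX2 against shEV, on the x axis for each of the 29 tested imprinted genes, with the standard error as a bar. Points are coloured by the allele assigned to the gene as background. Filled points have an adjusted p under 0.05, and the dashed line marks the median of all tested genes at -0.10. *ZDBF2* (-1.96) and *GRB10* (-1.90) lie far to the left of the other genes, and *IGF2R* (0.59) lies farthest to the right.

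*ZDBF2* and *GRB10* fell most, and *MEST* was the most abundant imprinted gene, so the start-site windows of these 3 genes are shown. RefSeq windows on GRCh38.p14, each running from 250 bases before to 50 after a transcript start, were held for 31 of the 45 genes, and the window with the most CpG dinucleotides is printed where a gene had several. Capitals mark each CpG, the dinucleotide at which imprints are methylated. The *ZDBF2* window lies at chr2:206274760-206275059 on the plus strand with 50 CpG, the *GRB10* window at chr7:50792825-50793124 on the minus strand with 49 CpG, and the *MEST* window at chr7:130491835-130492134 on the plus strand with 25 CpG.
ZDBF2: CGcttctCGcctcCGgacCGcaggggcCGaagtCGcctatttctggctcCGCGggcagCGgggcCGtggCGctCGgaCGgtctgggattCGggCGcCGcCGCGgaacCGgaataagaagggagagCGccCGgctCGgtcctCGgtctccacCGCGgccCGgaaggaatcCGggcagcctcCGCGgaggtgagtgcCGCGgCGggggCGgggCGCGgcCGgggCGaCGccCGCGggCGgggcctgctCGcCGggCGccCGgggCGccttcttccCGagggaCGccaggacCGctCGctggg
GRB10: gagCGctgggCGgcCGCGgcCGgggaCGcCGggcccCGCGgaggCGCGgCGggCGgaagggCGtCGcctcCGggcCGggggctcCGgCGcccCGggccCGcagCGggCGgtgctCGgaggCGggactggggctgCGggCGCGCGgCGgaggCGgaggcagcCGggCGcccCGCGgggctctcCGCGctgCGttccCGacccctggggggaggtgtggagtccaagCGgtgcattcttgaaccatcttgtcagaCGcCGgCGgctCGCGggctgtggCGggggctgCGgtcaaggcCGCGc
MEST: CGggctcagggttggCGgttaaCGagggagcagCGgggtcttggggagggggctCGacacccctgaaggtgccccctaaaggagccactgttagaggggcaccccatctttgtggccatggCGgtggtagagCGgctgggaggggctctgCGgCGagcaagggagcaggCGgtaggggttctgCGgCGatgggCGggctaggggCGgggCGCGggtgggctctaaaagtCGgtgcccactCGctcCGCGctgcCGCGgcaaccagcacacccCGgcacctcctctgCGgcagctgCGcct
The letters TGCCGC, the hexamer that the imprint-maintaining zinc finger protein ZFP57 binds when its CpG is methylated, were found on either strand in the *ZDBF2* and *MEST* windows and not in the *GRB10* window, and 16.7% of all 35116 RefSeq windows hold them. Taking the most CpG-rich window of each gene, as was done for the printed ones, the share was 28.3% over the 9090 tested genes with a window. The letters GTCACGC, the core of the motif that PAX2 and related PAX proteins recognise, were found on neither strand of these 3 windows, and 2.52% of all windows and 4.27% of the most CpG-rich ones hold them. These windows are transcript starts, and whether any of them lies in an imprinted control region was not examined. Methylation was not measured in these libraries.

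*ZDBF2*, a zinc finger gene on chromosome 2 (207139387 to 207179151 on GRCh37, the build of the files) that is normally expressed from the paternal allele, had the largest decrease. Its level was 12.6, 13.2 and 17.6 TPM in shEV and 3.32, 3.34 and 3.28 TPM in shPAX2. All shPAX2 libraries were lower than all shEV libraries and nearly identical to each other, at 22.9% of the shEV mean (log2 fold change -1.96, SE 0.13, limma adjusted p = 8.97e-06). Of the 6 nearest listed genes, 5 were tested and 4 of these were also lower (80.0%, beside 30.5% lower among all tested genes). They were *EEF1B2*, a translation elongation factor subunit gene (-0.53), *NDUFS1*, of respiratory complex I (-0.17), the pseudogene *GCSHP3* (-0.60) and *MDH1B*, a malate dehydrogenase relative (-1). *NDUFS1* was not past the threshold under median-of-ratios scaling (adjusted p = 0.302). *FASTKD2* did not pass (0.03, adjusted p = 0.784). The nearest neighbour above, *ADAM23*, was under the filter with a mean of 0.64 TPM in shEV and 0.0193 TPM in shPAX2, and its groups did not overlap.

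*GRB10*, on chromosome 7p12 (50657760 to 50861159, minus strand), encodes an adaptor that dampens insulin and insulin-like growth factor receptor signaling and is expressed from the maternal or the paternal allele depending on tissue. It was at 12.7, 12.1 and 12.9 TPM in shEV and at 2.98, 3.09 and 2.97 TPM in shPAX2. The groups were far apart and each was tight, with shPAX2 at 24% of the shEV mean (-1.90, SE 0.08, adjusted p = 8.31e-07). The reads behind the *GRB10* values numbered 153 to 615 per library. *DDC*, its imprinted neighbour encoding the aromatic amino acid decarboxylase, was at 0 to 0.124 TPM and was not tested. Of the other neighbours, *COBL*, directly above, was at -0.10 (adjusted p = 0.607), *FIGNL1*, directly below, at 0.16 (adjusted p = 0.0623, and 0.00789 at 0.26 under median-of-ratios scaling), and *EGFR*, the epidermal growth factor receptor gene 4225.6 kb above, rose by 1.75 (SE 0.08, adjusted p = 9.96e-07).

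At 14q32, 3 of 4 tested imprinted genes were lower (75.0%, beside 30.5% lower among all tested genes) and none was higher. The median log2 fold change was -0.45, beside -0.10 over all tested genes. Of these calls, those of *MEG3* and *RTL1* were lost under settings given below, and that of *MEG8* rests on 3 to 12 reads per library. The long noncoding RNA *MEG3* (101245747 to 101327368), which is made from the maternal allele and is described as growth suppressing, was at 1.06, 1.02 and 0.975 TPM in shEV and 0.458, 0.498 and 0.514 TPM in shPAX2. It fell to 48.2% of the shEV mean with no overlap (-0.62, SE 0.15, adjusted p = 0.0117), although quantile normalization took the adjusted p to 0.0681. Its fold change on the recovered reads, fitted with voom, was -1.05. *MEG8*, another maternal noncoding RNA of the cluster, was at 2.24, 1.36 and 2.67 TPM in shEV and 0.394, 0.447 and 1.03 TPM in shPAX2. Each shPAX2 library was below each shEV library (-1.22, SE 0.26, adjusted p = 0.00628), but these values rest on 6, 6 and 12 reads in shEV and 3, 3 and 5 reads in shPAX2, and with a pseudocount of 1 the log2 fold change was -0.93.

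The fold changes of the paternally expressed genes of the cluster were nearer 0. *RTL1*, a retrotransposon-derived gene needed in the placenta, was at 45.9, 44.7 and 47.0 TPM in shEV and 39.4, 41.0 and 40.9 TPM in shPAX2. The groups did not overlap (-0.18, SE 0.05, adjusted p = 0.0261), and the call was lost under median-of-ratios scaling (-0.07, adjusted p = 0.259), with chromosome medians removed (-0.05, adjusted p = 0.471) and without any of 4 single libraries (shEV replicate 1 or 3, shPAX2 replicate 2 or 3). *DIO3*, which encodes the deiodinase that inactivates thyroid hormone, ranged from 1.93 to 3.16 TPM and did not pass (-0.29, adjusted p = 0.127). *DLK1*, encoding a membrane relative of the Notch ligands, had 0 to 3 reads per library. By the GENCODE gene spans used here, *RTL1* and *MEG8* overlap on opposite strands, and whether their counted exons overlap was not examined. The strand setting of the counting is not given in the sources used here, so reads of these 2 genes cannot be told apart with certainty. Outside the imprinted genes, the nearest noncoding neighbour *LINC00523* fell by 0.99 on the log2 scale (adjusted p = 0.000261), from a mean of 64.2 to 32.2 TPM, while the next genes *BEGAIN* (0.16, adjusted p = 0.515) and *WDR25* (0.14, adjusted p = 0.115) did not pass. *WDR25* passed under median-of-ratios scaling (0.25, adjusted p = 0.0163).

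**Figure D2:**
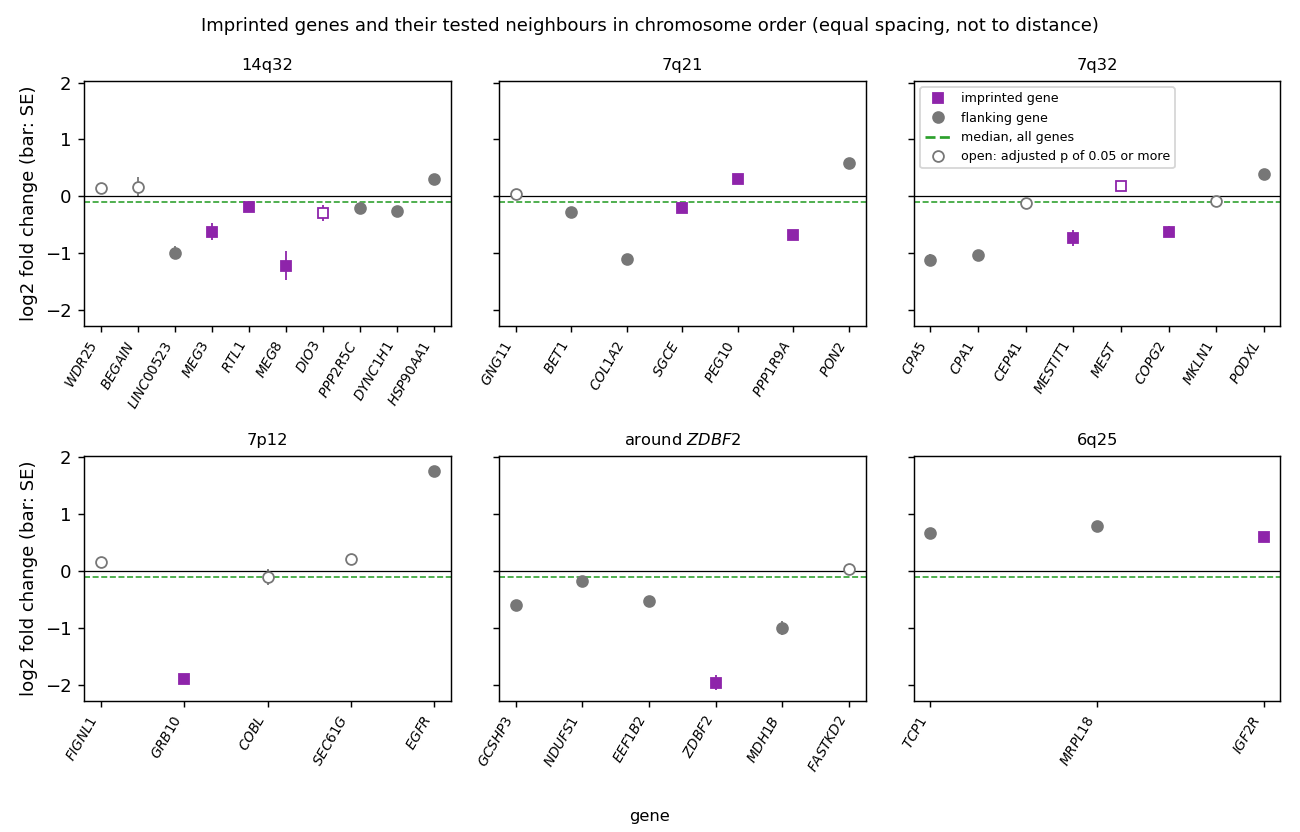
Log2 fold change (y axis, with the standard error as a bar) of tested imprinted genes (squares) and of up to 3 tested flanking genes on each side (circles), in chromosome order at equal spacing, for 6 loci; filled symbols have an adjusted p under 0.05. *GRB10* (-1.90) stands below its neighbours *FIGNL1* (0.16) and *COBL* (-0.10), *ZDBF2* (-1.96) stands among lower neighbours, and *PEG10* (0.30) lies above both imprinted genes beside it.

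At 7q21 all 3 imprinted genes were called, in different directions, beside 42.8% called among all tested genes. *PEG10* (chromosome 7, 94285637 to 94299007), a paternally expressed gene derived from a retrotransposon and needed for placental growth, was at 1834, 1805 and 1857 TPM in shEV and 2133, 2283 and 2346 TPM in shPAX2. Every shPAX2 library was higher (0.30, SE 0.06, adjusted p = 0.00344), and under quantile normalization the adjusted p was 0.0758. Its paternally expressed neighbour *SGCE*, encoding epsilon-sarcoglycan, was at 172, 172 and 175 TPM in shEV and 147, 149 and 157 TPM in shPAX2. It was lower without overlap (-0.20, SE 0.05, adjusted p = 0.0163), but not past the threshold under median-of-ratios scaling (-0.09, adjusted p = 0.180), with chromosome medians removed (adjusted p = 0.212) or without shEV replicate 3 or shPAX2 replicate 2. These 2 genes overlap at their starts on opposite strands, so the same doubt over the strand of reads holds in the overlap. Their ratio within a library does not depend on the scaling of libraries by a factor. The ratio of *PEG10* to *SGCE* was 10.6 ± 0.0875 in shEV and 14.9 ± 0.396 in shPAX2 (SD, n = 3 each), higher in each of the 3 shPAX2 libraries (two-sided exact permutation test p = 0.1, the smallest that 3 against 3 allows).

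*PPP1R9A*, which encodes the actin-binding protein neurabin and is maternally expressed in some tissues, was at 20.1, 20.2 and 20.1 TPM in shEV and 12.5, 12.7 and 12 TPM in shPAX2. It fell to 61.4% of the shEV mean with the groups well apart (-0.68, SE 0.06, adjusted p = 5.84e-05). The flanking gene *COL1A2*, encoding a chain of type I collagen, fell by 1.11 (adjusted p = 1.75e-05), and *PON2*, a paraoxonase gene on the other side, rose by 0.59 (adjusted p = 5.28e-05).

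*MEST* at 7q32 (130126012 to 130146306), a paternally expressed gene for a hydrolase-like protein that marks mesoderm, took 1.31% to 1.62% of all TPM and was number 3 of all genes by TPM in every library. Its level was 13819, 13131 and 13770 TPM in shEV and 14190, 15692 and 16188 TPM in shPAX2. Although the groups did not overlap, *MEST* did not pass the test (0.18, SE 0.07, adjusted p = 0.0572). It did pass under median-of-ratios scaling (0.28, adjusted p = 0.00882), with chromosome medians removed (0.29), on the recovered reads (adjusted p = 0.0287) and without shPAX2 replicate 1 (0.23, adjusted p = 0.00862). The antisense RNA *MESTIT1*, made from the paternal allele over the start of *MEST*, was at 1.90, 1.61 and 1.78 TPM in shEV and 0.967, 0.801 and 0.822 TPM in shPAX2. It was lower in every shPAX2 library (-0.73, SE 0.14, adjusted p = 0.00373) and rests on 26 to 52 reads per library.

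*COPG2*, which encodes a subunit of the coatomer of Golgi vesicles and whose imprinting in humans is unsettled, runs against the end of *MEST*. It was at 15.4, 13.1 and 15.9 TPM in shEV and 9.68, 8.68 and 9.99 TPM in shPAX2. The groups did not overlap, and *COPG2* fell to 63.9% of the shEV mean (-0.62, SE 0.09, adjusted p = 0.00098). The ratio of *MEST* to *COPG2* was 922 ± 70.4 in shEV and 1631 ± 171 in shPAX2, again with no overlap (exact permutation p = 0.1). Both *MESTIT1* and *COPG2* overlap the far more abundant *MEST* on the opposite strand, and with the strand setting of the counting not given, their reads cannot be told apart from those of *MEST* with certainty.

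**Figure D3:**
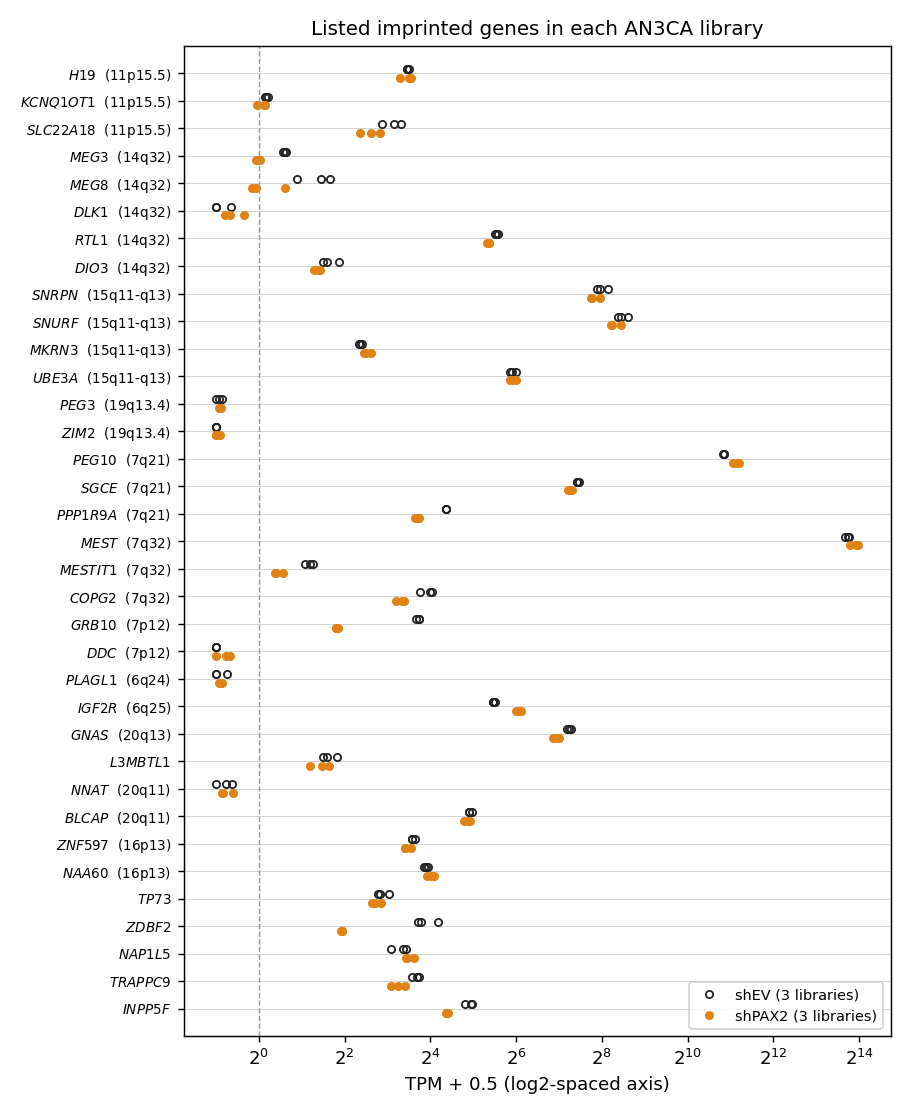
TPM + 0.5 on a log2-spaced x axis for each of the 35 listed imprinted genes in the 3 shEV libraries (open circles) and the 3 shPAX2 libraries (filled circles), with the cluster in brackets and a dashed line at 0.5 TPM, the filter. *MEST* (13131 to 16188 TPM) and *PEG10* (1805 to 2346 TPM) stand far above the rest, and the 6 genes with all their libraries left of the line were not tested.

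*IGF2R* at 6q25 (160390114 to 160534539), the receptor that clears insulin-like growth factor 2 and sorts lysosomal enzymes, had the largest increase of the tested imprinted genes. It was at 45.0, 43.6 and 43.5 TPM in shEV and 63.6, 68.9 and 67.4 TPM in shPAX2. Every shPAX2 library was higher, at 151% of the shEV mean (0.59, SE 0.06, adjusted p = 7.74e-05). Genes on chromosome 6 were higher in shPAX2 in general: their median log2 fold change was 0.39 over 629 tested genes, beside -0.12 over the tested genes of the other chromosomes. With the median of each chromosome removed, *IGF2R* stood at 0.20 (adjusted p = 0.0175). Its tested neighbours *MRPL18*, a mitochondrial ribosomal protein gene, and *TCP1*, a chaperonin subunit gene, rose by 0.80 and 0.67. *AIRN*, the antisense noncoding RNA that silences its neighbour in mice, was not listed. At 6q24 the growth-restraining zinc finger gene *PLAGL1* had 0 to 3 reads per library, and *HYMAI* was not listed. All 5 tested genes around *PLAGL1* were higher (0.30 to 0.92), beside 12.2% higher among all tested genes.

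*GNAS* at 20q13 encodes the stimulatory G protein alpha subunit, and its locus makes further transcripts from either allele. The row was at 155, 146 and 151 TPM in shEV and 128, 115 and 124 TPM in shPAX2. All shPAX2 libraries were lower, at 81.1% of the shEV mean (-0.30, SE 0.06, adjusted p = 0.00414). The table gives 1 value for the locus: *NESP55* was not listed under its own name, and the antisense gene *GNAS-AS1*, which overlaps *GNAS*, was at -0.09 (adjusted p = 0.757). With the strand setting not given, reads of these 2 genes cannot be told apart with certainty.

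At 15q11-q13, the Prader-Willi and Angelman syndrome region, none of the 4 tested imprinted genes passed, and the median was -0.09. Among all tested genes, 42.8% passed. *SNRPN*, encoding the spliceosomal protein SmN, was at 280, 249 and 236 TPM in shEV and 213, 217 and 247 TPM in shPAX2, with overlap (-0.18, SE 0.08, adjusted p = 0.116). *SNURF*, which is read from the same transcript upstream, was at 390, 348 and 330 TPM in shEV and 297, 302 and 346 TPM in shPAX2 (-0.18, adjusted p = 0.117). The recovered reads of these 2 genes differed by 0 to 2 in each library, so they are 1 measurement listed under 2 names. The counts and shares of tested imprinted genes, here and over all 29, take them as 2 genes. Without shPAX2 replicate 3 that measurement passed (*SNRPN* -0.25, adjusted p = 0.0436). *UBE3A*, the ubiquitin ligase of Angelman syndrome, was at 59.6, 57.2 and 63.6 TPM in shEV and 57.3, 63.1 and 60.2 TPM in shPAX2 (0.00, SE 0.06, adjusted p = 0.989), so its difference was small beside the spread. *MKRN3*, a gene that restrains the onset of puberty, ranged from 4.53 to 5.67 TPM and did not pass (0.16, adjusted p = 0.220), but did with chromosome medians removed (0.28, adjusted p = 0.0422) and under quantile normalization (0.39, adjusted p = 0.0154). *NDN* and *MAGEL2*, of the MAGE family, and the flippase gene *ATP10A* were not listed.

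At 11p15.5, 1 of 3 tested imprinted genes was called (33.3%, beside 42.8% of all tested genes). *H19*, the maternal noncoding RNA next to *IGF2*, was at 10.4, 10.8 and 10.5 TPM in shEV and 10.8, 11.2 and 9.28 TPM in shPAX2. The groups overlapped (-0.02, SE 0.09, adjusted p = 0.867). *SLC22A18*, an organic cation transporter-like gene expressed from the maternal allele, was at 9.40, 6.82 and 8.38 TPM in shEV and 6.59, 5.66 and 4.60 TPM in shPAX2. The highest shPAX2 library lay just below the lowest shEV library (-0.51, SE 0.15, adjusted p = 0.0225), and the call was lost under median-of-ratios scaling (-0.41, adjusted p = 0.0521), under quantile normalization (adjusted p = 0.122) and without any of 4 single libraries (shEV replicate 1 or 3, shPAX2 replicate 2 or 3). *KCNQ1OT1*, the paternal antisense RNA that silences its neighbours, was at 0.477 to 0.65 TPM and lower in each shPAX2 library without passing (-0.10, adjusted p = 0.668). By gene span, *SLC22A18* overlaps *SLC22A18AS* and *KCNQ1OT1* overlaps *KCNQ1* on the opposite strand, so the doubt over the strand of reads holds here too. *PHLDA2*, which restrains placental growth, and *ASCL2*, a trophoblast transcription factor gene, were not listed.

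Of the imprinted genes outside the large clusters, *INPP5F* and *TRAPPC9* were lower. *INPP5F*, a phosphoinositide phosphatase gene with an imprinted short transcript, was at 31.1, 27.3 and 30.1 TPM in shEV and 20.4, 20.2 and 20.7 TPM in shPAX2. The shPAX2 libraries were tight and lay below all shEV libraries, at 69.3% of their mean (-0.52, SE 0.07, adjusted p = 0.000415). *TRAPPC9*, encoding a subunit of a vesicle tethering complex, was at 12.8, 11.4 and 12.3 TPM in shEV and 10.1, 7.99 and 8.96 TPM in shPAX2. The groups did not overlap (-0.42, SE 0.10, adjusted p = 0.00794), and the call was lost with chromosome medians removed (-0.27, adjusted p = 0.0508) and under quantile normalization (-0.22, adjusted p = 0.0911).

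*BLCAP*, the host gene of *NNAT* at 20q11, was at 30.9, 29.5 and 29.5 TPM in shEV and 27.0, 30.0 and 28.8 TPM in shPAX2 (-0.07, SE 0.06, adjusted p = 0.405). *NNAT*, encoding neuronatin, had 0 to 2 reads per library. *L3MBTL1*, a chromatin compaction gene, ranged from 1.78 to 3.01 TPM and its groups overlapped (-0.19, adjusted p = 0.345). At 16p13 the zinc finger gene *ZNF597* was at 11.9, 11.3 and 11.4 TPM in shEV and 10.1, 10.1 and 11.2 TPM in shPAX2 (-0.14, SE 0.07, adjusted p = 0.167). Its neighbour *NAA60*, an acetyltransferase gene, was at 14, 14.4 and 14.9 TPM in shEV and 14.7, 15.7 and 16.5 TPM in shPAX2 (0.11, adjusted p = 0.246), and passed under median-of-ratios scaling (0.21, adjusted p = 0.0359) and quantile normalization (0.26). These 2 genes start head to head.

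*TP73*, the p53 relative, was at 6.41, 6.56 and 7.70 TPM in shEV and 6.69, 5.99 and 5.70 TPM in shPAX2, with overlap (-0.16, SE 0.10, adjusted p = 0.257). *NAP1L5*, a nucleosome assembly protein-like gene lying within *HERC3*, was at 10.3, 7.97 and 9.73 TPM in shEV and 10.2, 11.7 and 10.4 TPM in shPAX2 (0.20, SE 0.11, adjusted p = 0.152). It passed under median-of-ratios scaling (0.30, adjusted p = 0.0377), with chromosome medians removed (0.38) and under quantile normalization (0.40). By gene span, *HERC3* lies on the strand opposite *NAP1L5*, and *WRAP73* and *TP73-AS1* opposite *TP73*. Likewise *DIO3OS* lies opposite *DIO3* and *NNAT* opposite *BLCAP*, so the doubt over the strand of reads holds for these genes too. At 19q13.4 the zinc finger gene *PEG3* had 0 to 5 reads per library, *ZIM2* was at 0 to 0.0289 TPM, and *MIMT1* was not listed. The tumor suppressor *DIRAS3* was not listed either. A gene under the filter is one that did not reach 0.5 TPM in at least 3 libraries, and no statement on its silencing follows.

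Grouped by the allele assigned as background, paternal genes had 1 higher and 4 lower calls among 13 tested (median -0.18). Maternal genes had 1 higher and 4 lower among 10 tested (median -0.15). The maternal group includes *IGF2R*, its 1 higher call, and *PPP1R9A*, described above as maternal in some tissues only. Assignment to a group does not mean that a gene is imprinted in this line, which was not measured. The 13 paternal genes include *SNRPN* and *SNURF*, which are 1 measurement. The group of 6 tested genes whose allele depends on tissue or isoform, or is unsettled, had 5 lower calls and none higher (median -0.47). In either direction 38.5% of the paternal, 50.0% of the maternal and 83.3% of the mixed group were called, beside 42.8% of all tested genes, of which 12.2% were higher and 30.5% lower. Under median-of-ratios scaling the paternal calls became 3 higher and 2 lower and the maternal calls 2 higher and 3 lower. Genes of the same allele had fold changes of opposite sign at 7q21 and 7q32. At 7q21 the paternal *PEG10* was higher and the paternal *SGCE* lower, the latter not past the threshold under median-of-ratios scaling. At 7q32 the paternal *MESTIT1* was lower, on 26 to 52 reads per library of uncertain strand, while the paternal *MEST* was at 0.18 (limma adjusted p = 0.0572). At 14q32 the maternal *MEG3* and *MEG8* were at -0.62 and -1.22 and the paternal *RTL1*, whose call depended on scaling, at -0.18. No difference between the alleles was tested.

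**Figure D4:**
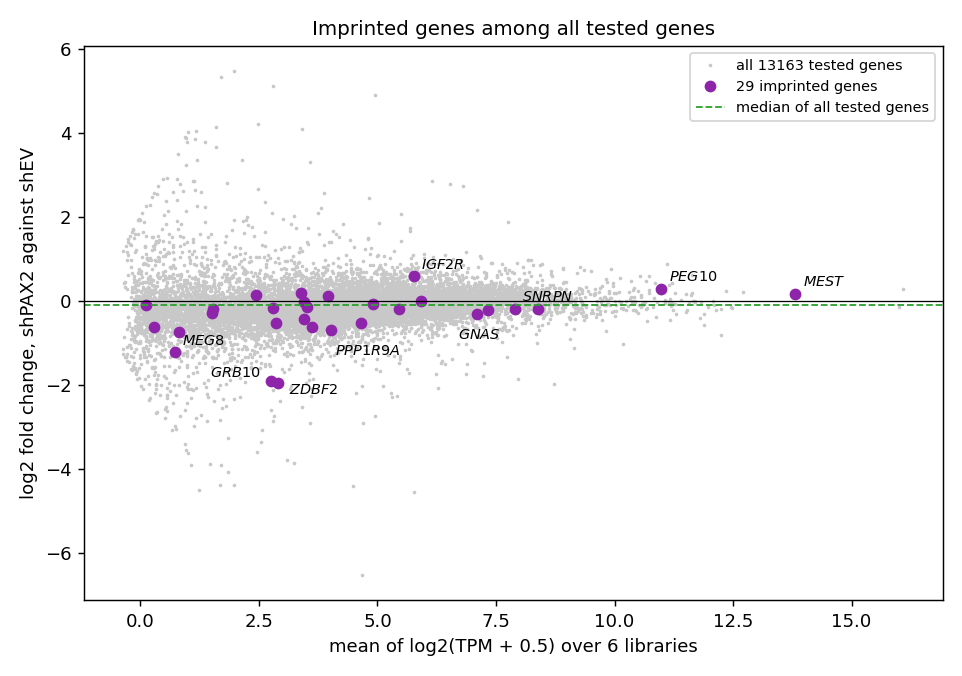
Log2 fold change (y axis) against the mean of log2(TPM + 0.5) over the 6 libraries (x axis) for all 13163 tested genes (small points) and the 29 imprinted genes (large points), with the dashed line at the median of all genes, -0.10. Most imprinted genes lie inside the cloud of all genes, with *ZDBF2* and *GRB10* at -1.96 and -1.90 at moderate levels and *MEST* and *PEG10* at the abundant end.

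The 82 tested genes that flank the clusters, up to 3 on each side, were called in 56.1% of cases, 16 higher and 30 lower, with a median log2 fold change of -0.08. These counts take *PYURF* and *PIGY*, higher with the same means and fold change, as 2 genes. The same holds for *NPEPL1* and the readthrough gene *STX16-NPEPL1*, both lower. Among all tested genes 42.8% were called, 12.2% higher and 30.5% lower, with a median of -0.10. Of the higher flanking genes, 5 lie around 6q24 and 2 around 6q25, on chromosome 6, where the median was 0.39. Under median-of-ratios scaling the balance of the flanking genes turned to 27 higher and 21 lower. The imprinted genes were called in 51.7%, with a median of -0.18, and no test was made of this difference. At the 7q32 end, the pancreatic-type carboxypeptidase genes *CPA5* and *CPA1* fell by 1.12 and 1.04. Next to them *CPA4*, a gene described as maternally expressed, was at 6.02, 4.58 and 5.03 TPM in shEV and 98.0, 223 and 221 TPM in shPAX2, so it rose by 4.90 (SE 0.38, adjusted p = 0.000928).

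Of 41 further genes reported as imprinted, 22 were listed and 13 tested, and 7 of these passed, 2 higher and 5 lower (median -0.15), a share of 53.8% beside 42.8% of all genes. The split turned to 4 higher and 3 lower under median-of-ratios scaling, under which the calls named here held. *RB1*, the retinoblastoma gene, fell by 0.64 (SE 0.07, adjusted p = 0.000161) and the homeobox gene *DLX5* by 0.76 (SE 0.10, adjusted p = 0.000359). *CDKN1C*, the cyclin-dependent kinase inhibitor of the 11p15.5 cluster, fell from a mean of 1.22 to 0.512 TPM (-0.78, SE 0.18, adjusted p = 0.00884). *PAR-SN*, a noncoding RNA downstream of *SNRPN*, was higher (0.53, SE 0.11, adjusted p = 0.00542). *IGF2*, the growth factor opposed by *IGF2R* and *GRB10*, was under the filter, at 0.0933 to 0.266 TPM.

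The genes that set and keep imprints were read from a list of 30, of which 23 were listed and 22 tested. Of these 2 were higher and 10 lower (54.5% called, beside 42.8% of all tested genes, with a median of -0.16), and under median-of-ratios scaling 5 were higher and 8 lower. *TRIM28*, the corepressor that ZFP57 and ZNF445 recruit to imprints, rose from a mean of 232 ± 12.8 to 297 ± 21.5 TPM (SD, n = 3 each; 0.36, adjusted p = 0.00411). *KDM1B*, a histone demethylase needed for maternal imprints in oocytes that lies on chromosome 6, rose by 0.45 (adjusted p = 0.000962). *ZNF445* fell by 0.38 (adjusted p = 0.00341), *EHMT1*, a histone methyltransferase gene, by 0.37 (adjusted p = 0.000768), *TET3*, a methylcytosine dioxygenase gene, by 0.54 (adjusted p = 0.000918) and *DNMT3A*, a de novo methyltransferase gene, by 0.48 (adjusted p = 0.00392). *DNMT1*, the maintenance methyltransferase, did not pass (0.19, adjusted p = 0.0517) but did under median-of-ratios scaling (0.30, adjusted p = 0.00842), and *CTCF*, which insulates several imprinted domains, was at -0.11 (adjusted p = 0.184). In bulk RNA, fewer cells expressing a gene and less RNA per cell cannot be told apart for any of these results.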

How the data were processed

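RNA-seq values of 6 AN3CA libraries, 3 shEV and 3 shPAX2, were analysed. The authors deposited TPM for 17471 genes. The submitters' processing notes name STAR, featureCounts of Subread, edgeR and hg19, and their versions and the strand setting of the counting are not given in the sources used here. Between libraries, the deposited TPM of a gene stood in whole-number ratios in 100% of genes (tolerance 1e-10), so whole reads were recovered, up to a factor common to the libraries of a gene, which gave the depth of 10730909 to 29405787 reads.

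Genes with at least 0.5 TPM in at least 3 libraries were tested with limma 3.58.1 in R 4.3.3 (lmFit and eBayes, trend and robust options on) after a log2(TPM + 0.5) transformation, with no covariate, two-sided, with Benjamini-Hochberg adjustment over 13163 genes. A gene was called at an adjusted p under 0.05, and a further rule added a change of 1 or more on the log2 scale, up or down. Fold changes on this scale understate the change of low genes. Errors are standard errors of the fit or SD over libraries. The fit and the read recovery were tested on simulated data.

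Every imprinted gene was named, and those called or with a mean of at least 5 TPM were given in all libraries, and of each further list the 5 called genes with the smallest adjusted p were named. *TRIM28*, *DNMT1*, *CTCF*, *IGF2* and *GNAS-AS1*, and the flanking genes, were named outside this rule after their values were seen. The members, the lists of other imprinted genes, of imprint maintenance genes and of cell type markers, the 3 flanking genes per side and the rules were chosen with earlier results of these data known. Gene positions are from GENCODE release 44 on GRCh37, in which 94.3% of the listed genes were found, and start-site windows are from RefSeq on GRCh38.p14. Overlaps between genes are of whole gene spans, introns included, and whether the counted exons overlap was not examined. Alternatives were pseudocounts of 0.1 and 1, no filter or filters at 1 and 5 TPM, median-of-ratios and quantile scaling, moderation without trend and robust options, chromosome medians removed, voom on the recovered reads, each library left out, and a block for the replicate number. Libraries with the same number did not deviate together (correlations -0.0523, 0.0815 and 0.0014), so the numbers do not pair them. Every pair of libraries differed by more than counting noise.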

Additional observations from a re-analysis of the deposited data

How the results depend on the processing

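Over the 17 alternatives, *PAX2* and the 29 tested imprinted genes kept the direction of every call, and calls were lost or gained in 20 and 13 of 484 combinations of gene and setting, named with each gene above. With median-of-ratios scaling 2786 genes were higher and 2626 lower (1612 and 4017 as reported), and 5 imprinted genes were higher. Its median log2 fold changes were -0.07 for imprinted genes, -0.07 for paternal, -0.05 for maternal and -0.36 for mixed-allele genes, 0.02 at 15q11-q13, -0.09 at 7q21, 0.09 at 16p13, -0.05 for other imprinted genes, -0.05 for imprint maintenance genes and 0.02 for flanking genes. With chromosome medians removed, 2575 genes were higher and 2520 lower, and 5 imprinted genes were higher. The medians were then -0.07 for imprinted, -0.05 for paternal, -0.06 for maternal and -0.33 for mixed-allele genes, -0.00 at 11p15.5, -0.32 at 14q32, 0.04 at 15q11-q13, -0.09 at 7q21, 0.05 at 16p13, -0.08 for imprint maintenance genes and 0.04 for flanking genes. Under quantile normalization 2489 genes were lower and 4 imprinted genes higher, and the medians were -0.14 for imprinted, -0.01 for paternal, 0.04 for maternal and -0.36 for mixed-allele genes, 0.09 at 11p15.5, -0.28 at 14q32, -0.43 at 7q32, 0.16 at 16p13, 0.06 for other imprinted, -0.09 for imprint maintenance and 0.00 for flanking genes. The cause of these moves was not tested.

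Fewer genes are tested under stricter filters. At 5 TPM, 303 genes passed the fold rule (598 as reported), and medians were -0.08 for maternal genes, -0.27 at 11p15.5, -0.18 at 14q32 and 15q11-q13, -0.22 at 7q32 and -0.09 for other imprinted genes. At 1 TPM they were -0.27 at 11p15.5, -0.29 at 14q32 and -0.21 for other imprinted genes. At 14q32 the median was -0.63 and -0.34 with pseudocounts of 0.1 and 1, and voom gave -0.72 there and -0.19 at 11p15.5.

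With each library left out in turn, 975 to 1803 genes were higher, the median was -0.23 to -0.18 for imprinted genes, -0.19 to -0.11 for paternal genes, -0.23 to -0.12 for other imprinted genes and -0.18 to -0.11 for imprint maintenance genes. The numbers of imprinted genes higher and lower ran from 2 to 3 and from 10 to 13, the lowest number lower coming without shEV replicate 3 or shPAX2 replicate 2. A block for the replicate number, which does not pair the libraries, left 2 imprinted genes higher and 13 lower, with 1489 and 3623 over all genes. Low reads limit *MEG8*, *MESTIT1* and the 6 untested listed genes.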
